A study of Mus musculus with 9 samples.

Results

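Lymphocyte signalling and surface genes, 43 genes that T cells and other lymphocytes use for antigen receptor signalling, surface contact, migration and gene control, were followed in RNA of Lewis lung carcinoma (LLC1) cells that had been kept with T cells. LLC1 is an established mouse lung cancer line. The 43 genes, of 19305 measured in all, were chosen by what they are known to do and by their measured differences between these same libraries, and were matched to the tables by gene symbol. T cell subsets labelled Th0, Th9 or Th17, each generated artificially, touched LLC1 cells for 24 h at 1 T cell per LLC1 cell. After that, a sort removed CD4+ cells, and the RNA of the cells left over was sequenced. There were 3 groups of 3 libraries (Th0, Th9 and Th17), and the Th0 group, the control of both comparisons, had been through the same co-culture with T cells and the same CD4 sort. No library of LLC1 cells without T cells was analysed here, and the labels name no genotype, strain or age of the animals that gave the T cells. The title of the series links Th9 and Th17 lymphocytes to epithelial-mesenchymal transition and spread of lung cancer. The comparison described here is how much lymphocyte RNA was left in each library after the sort. Because the libraries hold bulk RNA, fewer cells of a type and less RNA per cell cannot be told apart.

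In a T cell, the antigen receptor has no enzyme of its own. The kinase Lck, held at the coreceptors CD4 or CD8, phosphorylates the signalling tails of the CD3 chains and of the zeta chain (Cd247), the kinase Zap70 binds these tails, and Zap70 then phosphorylates the scaffolds LAT and SLP-76 (Lcp2), from which calcium, Ras and actin signals start. The phosphatase CD45 (Ptprc) keeps Lck ready, and the phosphatases Ptpn22 and SHP-1 (Ptpn6) damp the signal. A carcinoma line is not a usual source of most of these transcripts, so in a co-culture they serve as a marker of lymphocytes.

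Lck, Zap70 and Lat act one after another in this pathway. Their promoter sequences were picked for what is known of these genes and not by their values. The 43 genes they belong to were chosen with their differences known. Each window runs from 250 bases before to 50 after a start site, 5′ to 3′ on the gene's strand, from RefSeq on GRCm38.p6. Lck has a distal and a proximal promoter, both shown, and of the 3 Zap70 windows in the table the one at the start of the annotated gene is shown. The Lck windows (chr4:129573592-129573891 and chr4:129558323-129558622, minus strand) stand beside those of Zap70 (chr1:36761548-36761847, plus strand) and Lat (chr7:126369519-126369818, minus strand). Capitals mark matches, on either strand, to the core of the ETS family motif (GGAAG) or the RUNX family motif (TGTGGT), 2 families of factors active in T cells.
Lck promoter 1: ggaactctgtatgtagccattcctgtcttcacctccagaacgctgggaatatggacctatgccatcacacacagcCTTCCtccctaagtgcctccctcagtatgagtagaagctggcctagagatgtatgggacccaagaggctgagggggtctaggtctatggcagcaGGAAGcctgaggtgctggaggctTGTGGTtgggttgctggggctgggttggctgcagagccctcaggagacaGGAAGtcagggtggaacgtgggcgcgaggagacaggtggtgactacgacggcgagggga
Lck promoter 2: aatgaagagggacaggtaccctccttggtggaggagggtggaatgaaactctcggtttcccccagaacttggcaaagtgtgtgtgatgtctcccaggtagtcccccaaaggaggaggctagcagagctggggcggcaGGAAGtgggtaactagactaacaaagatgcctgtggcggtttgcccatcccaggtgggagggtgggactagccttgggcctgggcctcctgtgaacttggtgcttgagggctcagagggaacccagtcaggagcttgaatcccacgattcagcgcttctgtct
Zap70 promoter: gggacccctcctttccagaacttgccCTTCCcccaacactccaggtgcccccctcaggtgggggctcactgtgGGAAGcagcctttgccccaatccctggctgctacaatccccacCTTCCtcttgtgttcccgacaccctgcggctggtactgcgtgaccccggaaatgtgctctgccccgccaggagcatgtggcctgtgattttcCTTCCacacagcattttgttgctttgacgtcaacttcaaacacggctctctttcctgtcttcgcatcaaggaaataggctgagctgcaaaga
Lat promoter: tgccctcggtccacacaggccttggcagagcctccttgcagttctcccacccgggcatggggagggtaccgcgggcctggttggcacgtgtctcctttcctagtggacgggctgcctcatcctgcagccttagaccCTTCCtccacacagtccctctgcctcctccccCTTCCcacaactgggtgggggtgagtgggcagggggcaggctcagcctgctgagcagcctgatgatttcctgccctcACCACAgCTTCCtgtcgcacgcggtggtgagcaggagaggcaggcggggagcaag
The first Lck window held 3 ETS matches and 1 RUNX match, the second 1 ETS match, the Zap70 window shown 4 ETS matches and the Lat window 3 ETS matches and 1 RUNX match, and no match overlapped another. Of the Zap70 windows that are not shown, 1 held 4 ETS matches and 1 RUNX match and the other held 0 of either. RefSeq windows were found for 32 of the 43 genes, 52 windows in all. The ETS core was in 45 of the 52 (86.5%), against 71.4% of 32851 windows of all genes, and the RUNX core was in 13 (25.0%), against 16.8%. A TATAAA box was in 11 (21.2%, against 13.6%), and the median share of G or C was 53.3%, against 52.7%. These are counts of letters in windows of 300 bases and say nothing of whether a factor was bound.

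The values are normalized counts without decimals. A table with Th9 lists 18816 genes and a table with Th17 lists 18511, and each also holds the 3 Th0 libraries. Th0 values below are those of the table with Th9, and in the other table they are higher by a factor of about 1.03. Library depth was between about 12720000 and 17510000 reads. Th0 replicate 1 stood apart, with 31.1% of its summed values on mt-Rnr1, mt-Rnr2 and Gm26917, 3 genes of ribosomal or other non-coding RNA, against 14.9% to 21.8% in the other 8 libraries. Differences are those of mean log2(value + 1), with a standard error (SE) from 3 libraries a group, and they understate the change of low genes. The labels do not say that the libraries of a group came from separate cultures. Since the genes were selected on these contrasts, their differences are a description and carry no test. A gene that a table leaves out had few reads in all of its 6 libraries.

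Nearly all of these transcripts were higher in the libraries labelled Th9 than in those labelled Th0, and none was higher in all Th17 libraries than in all Th0 libraries. In the table with Th9 all 43 genes were listed, 42 of them averaging at least 10 across the table, but only 17 averaging at least 10 in Th0. All 3 Th9 libraries lay above all 3 Th0 libraries for 40 of the 43 genes and below them for 1 (Ptpn6). The libraries overlapped for Cd4 and Cd5. Over all genes of that table, 19.2% had all Th9 libraries above all Th0 libraries and 16% had them below. As the genes were selected on this contrast, nothing is read from that excess. The median difference over the 43 was 3.39 on the log2 scale, from -0.65 (Ptpn6) to 6.01 (Fam46a), beside a median of 0.00 over all genes listed. Without Th0 replicate 1 the median was 3.67.

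**Figure D1:**
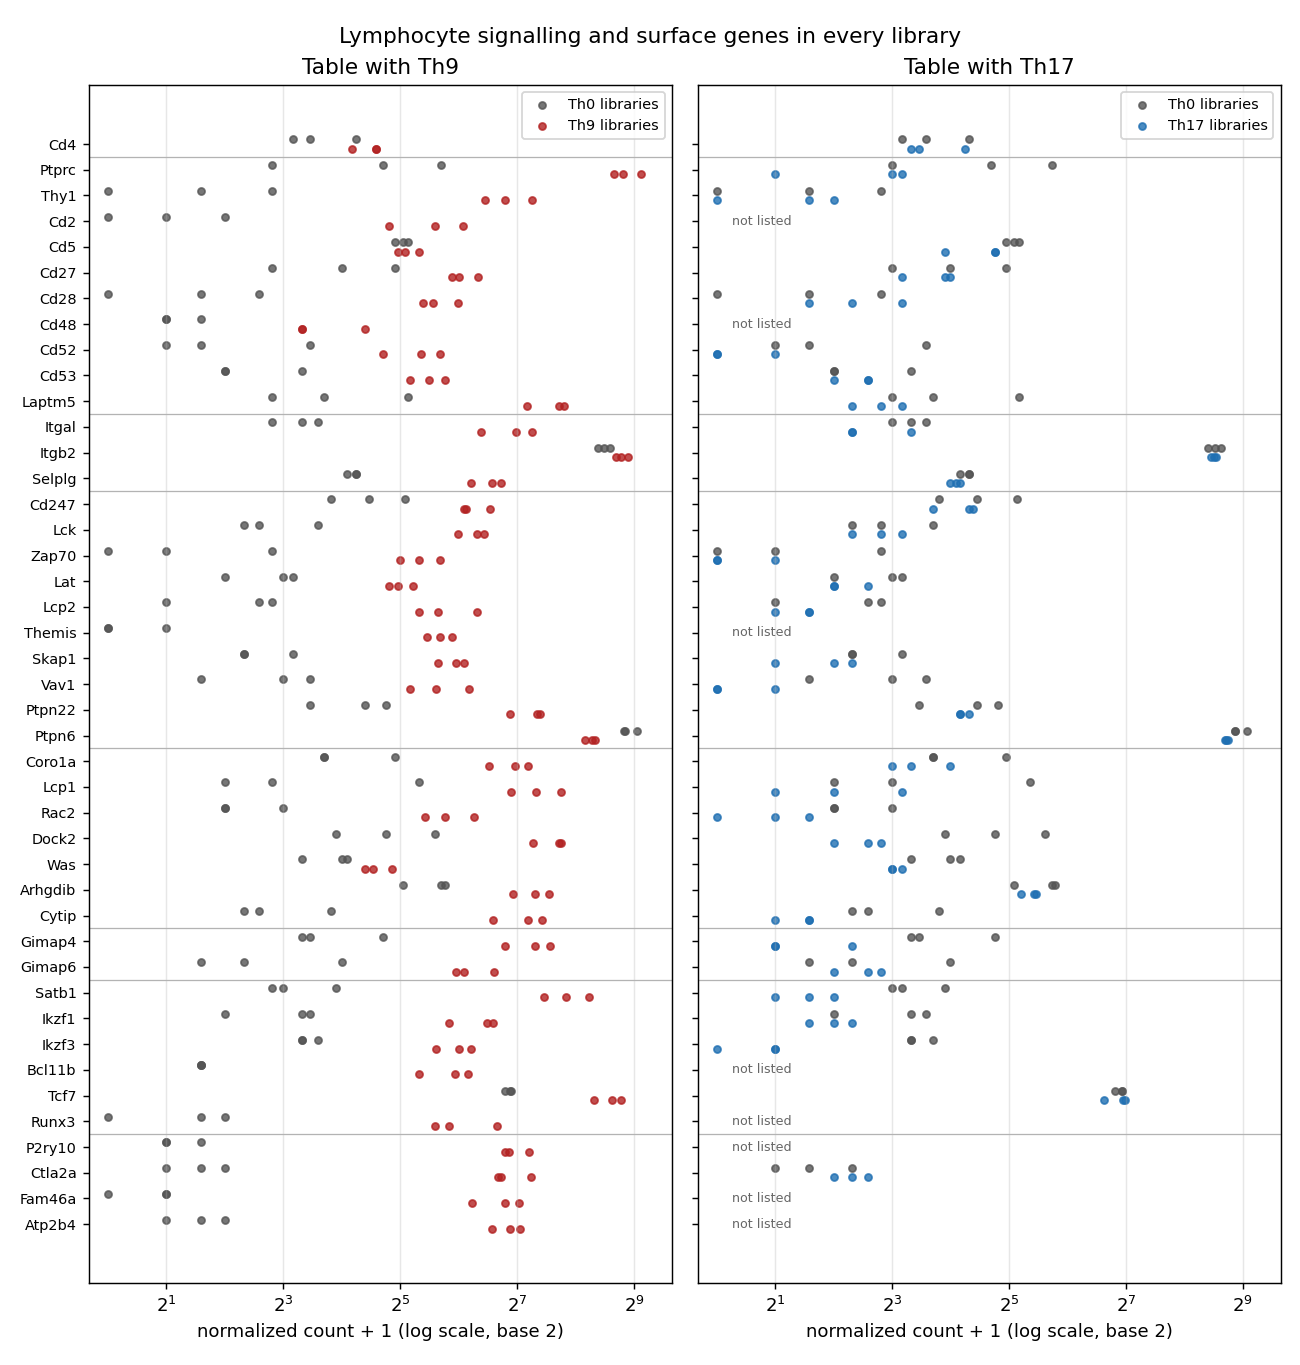
Normalized count plus 1 (log axis, base 2) of each of the 43 genes in every library, 1 point per library, left for the table with Th9 and right for the table with Th17, with genes ordered by role. The Th9 points lie to the right of the Th0 points for 40 genes, whereas Th17 and Th0 points overlap for 25 of the 35 genes listed there.

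Cd4, the coreceptor by which the cells had been sorted out, was listed at 10, 8 and 18 in the Th0 libraries and at 23, 23 and 17 in the Th9 libraries, a difference of 0.82 (SE 0.35). The highest Th0 library was above the lowest Th9 library, so the groups overlapped. In the Th17 libraries Cd4 was at 10, 9 and 18, a difference of -0.02 (SE 0.44) from Th0. Cd4 thus stayed between 8 and 23 in all 9 libraries.

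Among the surface proteins, 9 of 10 genes had no overlap between Th9 and Th0, and the median difference of the 10 was 3.45. Ptprc, the CD45 phosphatase found on all white blood cells (chromosome 1, positions 138062861 to 138175708), was at 51, 25 and 6 in the Th0 libraries and at 551, 447 and 401 in the Th9 libraries, a difference of 4.45 (SE 0.86). Its lowest Th9 library was above every Th0 library, but the Th0 libraries themselves spread widely, with replicate 1 highest. Thy1, the small glycoprotein that marks mouse T cells, was at 6, 0 and 2 against 151, 110 and 86, a difference of 5.36 (SE 0.85). Laptm5, a lysosomal protein of blood cells that lowers receptor levels, was at 34, 12 and 6 against 221, 208 and 143 (3.68, SE 0.70). All of these had their highest Th9 value in replicate 1. Cd27, a costimulatory receptor of the TNF receptor family, was at 29, 15 and 6 against 79, 63 and 58 (2.16, SE 0.62). Cd28, the main costimulatory receptor of T cells, was at 0, 5 and 2 against 62, 46 and 41 (4.25, SE 0.77). Cd2, an adhesion receptor of T and NK cells, was at 3, 1 and 0 against 66, 47 and 27 (4.49, SE 0.68). No Th0 library reached the lowest Th9 library for any of these receptors. Cd53, a tetraspanin of white blood cells, was at 9, 3 and 3 against 53, 44 and 35 (3.03, SE 0.47). Cd52, a small glycoprotein of lymphocytes, was at 10, 2 and 1 against 50, 40 and 25 (3.23, SE 0.80). Cd48, a partner of CD2 and CD244, had the lowest Th9 values of the group, at 1 to 2 with Th0 and 9 to 20 with Th9. Cd5 did not follow the others. This inhibitory receptor of T cells and some B cells (chromosome 19, positions 10718143 to 10738974) was at 34, 29 and 32 with Th0 and at 39, 30 and 33 with Th9, a difference of 0.09 (SE 0.13), and the libraries of the groups were interleaved.

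The genes of adhesion and homing fell into unlike sizes, with a median difference of 2.30. Itgal and Itgb2 encode the alpha and beta chains of the integrin LFA-1, with which lymphocytes hold on to other cells. Itgal was at 9, 6 and 11 in Th0 and at 151, 125 and 82 in Th9, a difference of 3.63 (SE 0.34). Itgb2 (chromosome 10, positions 77530252 to 77565708) was already at 356, 332 and 382 in Th0 and stood at 412, 435 and 472 in Th9, a difference of 0.30 (SE 0.08). The chains of 1 integrin thus had very different Th0 levels and very different steps. Selplg, the ligand of the selectins that slow lymphocytes on vessel walls, was at 16, 18 and 18 against 104, 94 and 73 (2.30, SE 0.16), with little spread among the Th0 libraries.

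Of the 10 genes that act next to the antigen receptor, 9 had all Th9 libraries above all Th0 libraries and 1 had them below, with a median difference of 3.14. Lck was at 11, 5 and 4 in Th0 and at 78, 85 and 62 in Th9, a difference of 3.41 (SE 0.41). Zap70 was at 6, 0 and 1 against 50, 31 and 39 (4.06, SE 0.84), and Lat at 8, 7 and 3 against 36, 27 and 30 (2.27, SE 0.38). The kinases and the scaffold whose promoters are printed above were thus higher in every Th9 library than in any Th0 library. Cd247, the zeta chain, was at 33, 21 and 13 against 92, 69 and 67 (1.80, SE 0.40), the smallest step among the positive ones of this set. Lcp2, the SLP-76 scaffold, was at 6, 5 and 1 against 78, 49 and 39 (3.63, SE 0.64). Themis, a regulator of Lck signalling named for its part in thymocyte selection, was at 1, 0 and 0 against 50, 58 and 43 (5.34, SE 0.36), the largest step of the set. Skap1, an adaptor that links the receptor to integrins, was at 8, 4 and 4 against 67, 61 and 49 (3.29, SE 0.31). Vav1, the exchange factor that carries the signal to Rac, was at 10, 7 and 2 against 71, 48 and 35 (2.97, SE 0.63). For both, every Th9 library was several times every Th0 library. Ptpn22, a phosphatase that restrains Lck and Zap70, was at 26, 10 and 20 against 160, 166 and 116 (2.99, SE 0.42). Ptpn6 went the other way. This gene of the SHP-1 phosphatase (chromosome 6, positions 124720707 to 124738714) was at 455, 525 and 453 in Th0 and at 320, 285 and 309 in Th9, a difference of -0.65 (SE 0.09), with every Th9 library below every Th0 library.

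All 7 genes of the cytoskeleton and migration had Th9 libraries above Th0 libraries, with a median difference of 2.83. Lcp1, the actin bundler L-plastin, was at 39, 6 and 3 against 214, 158 and 118, a difference of 3.94 (SE 1.03), and its Th0 libraries were the least even of the set. Coro1a, the actin regulator coronin 1A of white blood cells, was at 29, 12 and 12 against 144, 123 and 91 (2.78, SE 0.45). Dock2, an exchange factor for Rac that lymphocytes need to migrate, was at 47, 26 and 14 against 209, 213 and 154 (2.83, SE 0.51). Replicate 1 was the highest Th0 library for each. Rac2, the Rac GTPase of blood cells, was at 7, 3 and 3 against 76, 53 and 42 (3.48, SE 0.41). Cytip, which binds the cytohesins and eases LFA-1 adhesion, was at 13, 5 and 4 against 170, 145 and 95 (4.16, SE 0.52). Arhgdib, an inhibitor of small GTPases in blood cells, was at 53, 51 and 32 against 185, 157 and 121 (1.76, SE 0.29). Was, the actin nucleation promoter whose loss causes Wiskott-Aldrich syndrome, had the lowest Th9 values of this set, at 9 to 16 with Th0 and 20 to 28 with Th9 (0.79, SE 0.28). Its groups parted by a small margin, and those of the other genes by a wide one.

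The GIMAP genes encode GTPases of lymphocytes and lie together on chromosome 6. Gimap4 (positions 48684549 to 48692060) was at 25, 10 and 9 in Th0 and at 188, 157 and 109 in Th9, a difference of 3.39 (SE 0.49). Gimap6, its neighbour on the other strand (positions 48701582 to 48708225), was at 15, 4 and 2 against 96, 67 and 61 (3.58, SE 0.74). Both showed the same order of libraries, with replicate 1 highest in either group.

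The 6 transcription factor genes had a median difference of 3.79. Satb1, a genome organiser of thymocytes, was at 14, 6 and 7 in Th0 and at 300, 227 and 174 in Th9, a difference of 4.60 (SE 0.41). Bcl11b, which fixes T cell fate, was at 2, 2 and 2 against 70, 60 and 39 (4.22, SE 0.25). Runx3, a factor of CD8 T cells and innate lymphocytes, was at 2, 3 and 0 against 100, 56 and 47 (4.83, SE 0.69). Bcl11b and Runx3 were at 0 to 3 in Th0, and no Th9 library of these genes was below 39. Ikzf1 (Ikaros) was at 10, 9 and 3 against 95, 88 and 56 (3.37, SE 0.52). Its relative Ikzf3 (Aiolos), found in T and B cells, was at 11, 9 and 9 against 73, 48 and 63 (2.53, SE 0.19). Tcf7, which encodes TCF-1 of naive and memory T cells, already had a clear Th0 level of 117, 110 and 118 and stood at 434, 392 and 318 with Th9, a difference of 1.71 (SE 0.14). Like Itgb2 and Ptpn6, it was therefore not absent from the control libraries.

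The 4 other genes had a median difference of 5.55, the largest of the role groups, and had values of 0 to 3 in every Th0 library. P2ry10, a lysophospholipid receptor of lymphocytes, was at 2, 1 and 1 in Th0 and at 146, 115 and 110 in Th9 (5.76, SE 0.23). Ctla2a, an inhibitor of cathepsin-like proteases, was at 3, 2 and 1 against 150, 101 and 104 (5.35, SE 0.34). Fam46a, a poly(A) polymerase of the TENT5 family, was at 0, 1 and 1 against 130, 109 and 74 (6.01, SE 0.41). Atp2b4, a calcium pump of the plasma membrane, was at 2, 3 and 1 against 131, 116 and 94 (5.30, SE 0.32). Fam46a and Atp2b4 are not restricted to lymphocytes, yet neither exceeded 3 in any Th0 library.

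Compared per kilobase of exon, so that levels of different genes can be set side by side, the order of the genes changed between groups. The length was that of all annotated exons of a gene merged, which can exceed the length of any single transcript and so lower the level. In Th0 the highest levels were those of Ptpn6 (170 normalized counts per kb, SD 14.6) and Itgb2 (117, SD 8.19), followed by Tcf7 (43.8, SD 1.66) and Arhgdib (26.6, SD 6.79). In Th9 Tcf7 (145, SD 22.4) and Itgb2 (144, SD 9.92) led and did not differ beyond their spread, followed by Ptpn6 (109, SD 6.39), Arhgdib (90.4, SD 18.8) and Gimap4 (82.4, SD 21.7), where the last pair again lay within its spread. The largest gain per kb from Th0 to Th9 was that of Tcf7 (101), followed by Gimap4 (74.4), Arhgdib (63.9), Ctla2a (55.2) and Laptm5 (45.8). Cd4 was near the end of the order in Th9, with 5.21 per kb (SD 0.859), and gained 2.23 per kb. Below Cd4 was only Themis, with 11.682 kb of merged exons, at 4.31 (SD 0.642), within the spread of Cd4. Several genes overlap others in the GENCODE M21 annotation, such as Cd27 with Vamp1, Cd52 with Crybg2, Coro1a with Bola2, Arhgdib with Pde6h, Ptpn6 with Gm20531 and Tcf7 with A630014C17Rik. The sources used here do not say if reads were counted by strand, so such pairs can share them.

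Th17 co-culture gave no such excess. The table with Th17 listed 35 of the 43 genes. It left out Cd2, Cd48, Themis, Bcl11b, Runx3, P2ry10, Fam46a and Atp2b4, so these 8 had few reads with Th17 as well as with Th0, and 16 of the 35 had a mean of at least 10. No gene had all Th17 libraries above all Th0 libraries, 10 had them below, and 25 overlapped. Over all genes of the table, 10.8% had all Th17 libraries above and 9.30% had them below. The median difference was -0.65, from -2.78 (Ikzf3) to 0.89 (Cd28), beside -0.00 over all genes listed, with 33 genes below 0 and 2 above (Cd28, and Ctla2a at 0.67). This rested in part on Th0 replicate 1. Without it the median was -0.31, with 26 genes below 0 and 9 above, 11 genes with all Th17 libraries below, and 1 with all above. Without Th0 replicate 3, 18 genes had all Th17 libraries below. Leaving out a library can only keep or raise counts of genes without overlap. The shares over all genes were not computed for these settings, so no change is read from such counts. The comparisons of Th9 and of Th17 with Th0 share the Th0 libraries, so a low or high Th0 value enters both.

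The 10 genes whose Th17 libraries all lay below Th0 were Cd5, Vav1, Ptpn6, Rac2, Dock2, Was, Cytip, Gimap4, Satb1 and Ikzf3. Ikzf3 was at 1, 1 and 0 with Th17, a difference of -2.78 (SE 0.36), and Vav1 at 0, 1 and 0 (-2.39, SE 0.68). Dock2 was at 5, 6 and 3 (-2.29, SE 0.55), Gimap4 at 1, 1 and 4 (-2.40, SE 0.63) and Satb1 at 1, 2 and 3 (-1.83, SE 0.40). For these 5 genes every Th17 library was at 6 or below. Cytip was at 2, 2 and 1 (-1.51, SE 0.50), Rac2 at 0, 1 and 2 (-1.47, SE 0.57) and Was at 7 to 8 (-0.77, SE 0.27). Cd5 was at 26, 14 and 26 (-0.60, SE 0.29), and Ptpn6 at 412, 426 and 420, against 468, 536 and 464 for Th0 in the same table (-0.22, SE 0.07). By role, the median difference was -1.42 for the transcription factors listed, -1.40 for the cytoskeleton, -1.29 for the GIMAP genes, -0.53 for receptor signalling, -0.45 for the surface proteins and -0.19 for adhesion.

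Genes with overlapping libraries included the surface receptors and most of the receptor pathway. Ptprc was at 8, 7 and 1 with Th17 (-2.09, SE 1.06), where Th0 ran from 7 to 52 in that table, and Laptm5 was at 8, 4 and 6 (-1.19, SE 0.68). Lcp1 was at 8, 1 and 3 (-1.40, SE 1.18) and Coro1a at 15, 7 and 9 (-0.68, SE 0.51). The wide errors of these 4 genes come with a high value in Th0 replicate 1. Thy1 was at 0, 3 and 2, Cd27 at 14, 15 and 8, Cd28 at 4, 2 and 8, Cd52 at 0, 1 and 0, and Cd53 at 3, 5 and 5. Lck was at 4, 6 and 8 (-0.18, SE 0.47), Zap70 at 0, 1 and 0, Lat at 5, 3 and 3, Lcp2 at 2, 2 and 1, and Skap1 at 1, 4 and 3. For all of these the libraries overlapped with Th0, and no difference is read from values this low. Itgal was at 4, 4 and 9, Gimap6 at 3, 5 and 6, Ikzf1 at 4, 2 and 3, and Ctla2a at 4, 3 and 5. Better measured genes were close to Th0: Tcf7 was at 98, 122 and 125 (-0.04, SE 0.12), Itgb2 at 364, 350 and 372 (-0.01, SE 0.07) and Arhgdib at 43, 42 and 36 (-0.17, SE 0.24). Likewise Selplg was at 15, 17 and 16 (-0.19, SE 0.07), Cd247 at 19, 12 and 20 (-0.33, SE 0.44) and Ptpn22 at 17, 19 and 17 (-0.02, SE 0.41).

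**Figure D2:**
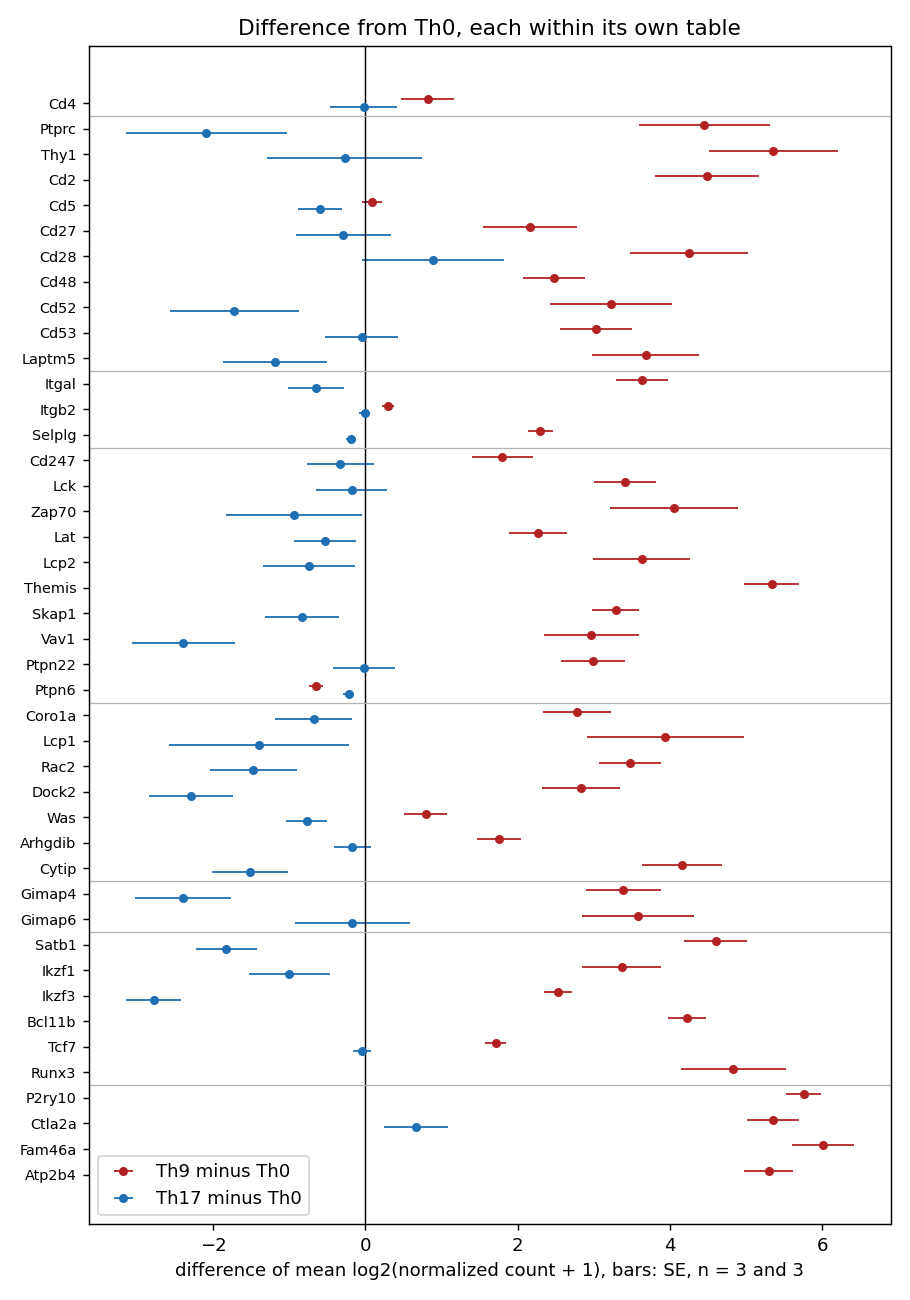
Difference in mean log2(normalized count + 1) from Th0 for each gene, Th9 (red) and Th17 (blue), each within its own table, with bars of 1 SE from 3 and 3 libraries and genes ordered by role. The Th9 points run from -0.65 (Ptpn6) to 6.01 (Fam46a), and the Th17 points from -2.78 (Ikzf3) to 0.89 (Cd28).

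Set against each other directly, after Th17 values had been brought to the scale of the table with Th9, the Th17 libraries all lay below the Th9 libraries for 33 of the 35 genes listed in both tables and above them for 1 (Ptpn6, 0.42, SE 0.05), and Cd4 overlapped (-0.80, SE 0.32). Over all 18022 genes in both tables, 20.1% had all Th17 libraries below and 19.5% had them above. The median difference over the 35 was -4.15, from -6.49 (Ptprc, SE 0.70), beside 0.01 over all genes. After Ptprc the most negative were Satb1 (-6.33, SE 0.37), Gimap4 (-5.80, SE 0.49), Cytip (-5.70, SE 0.31) and Thy1 (-5.65, SE 0.64). Of the 33, those nearest to 0 were Itgb2 (-0.31, SE 0.06) and Cd5 (-0.68, SE 0.30).

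The libraries of 1 group were not alike in these genes. Th9 replicate 1 was the highest Th9 library for 37 of the 43 genes (86.0%), whereas it was the highest for 31.4% of all genes averaging at least 10. Over the 37 genes with a Th9 mean of at least 30 and more than 2 times the Th0 mean, the ratio of Th9 replicate 1 to replicate 3 was above 1 for 37, with a median of 1.53, from 1.16 (Ikzf3) to 2.44 (Cd2). The ratio of replicate 1 to replicate 2 had a median of 1.23 and that of replicate 2 to replicate 3 a median of 1.29. Over 10635 genes averaging at least 50 the medians of these ratios were 1.00, 1.00 and 0.99. The genes thus moved up and down together between libraries that are replicates by label. In Th0, replicate 1 was the highest library for 30 of the 43 genes (69.8%, against 36.6% of all genes). The 41 genes other than Itgb2 and Ptpn6 summed to 727, 464 and 385 in the Th0 libraries and to 5191, 4285 and 3402 in the Th9 libraries. In the table with Th17, 33 of them summed to 737, 462 and 391 in Th0 and to 333, 331 and 358 in Th17. By these sums the Th17 libraries were the most even of the 3 groups. Tcf7, close to its Th0 level, made up 98, 122 and 125 of the Th17 sums, and many other genes were at single digits. Evenness of the sums thus says little of the other genes.

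**Figure D3:**
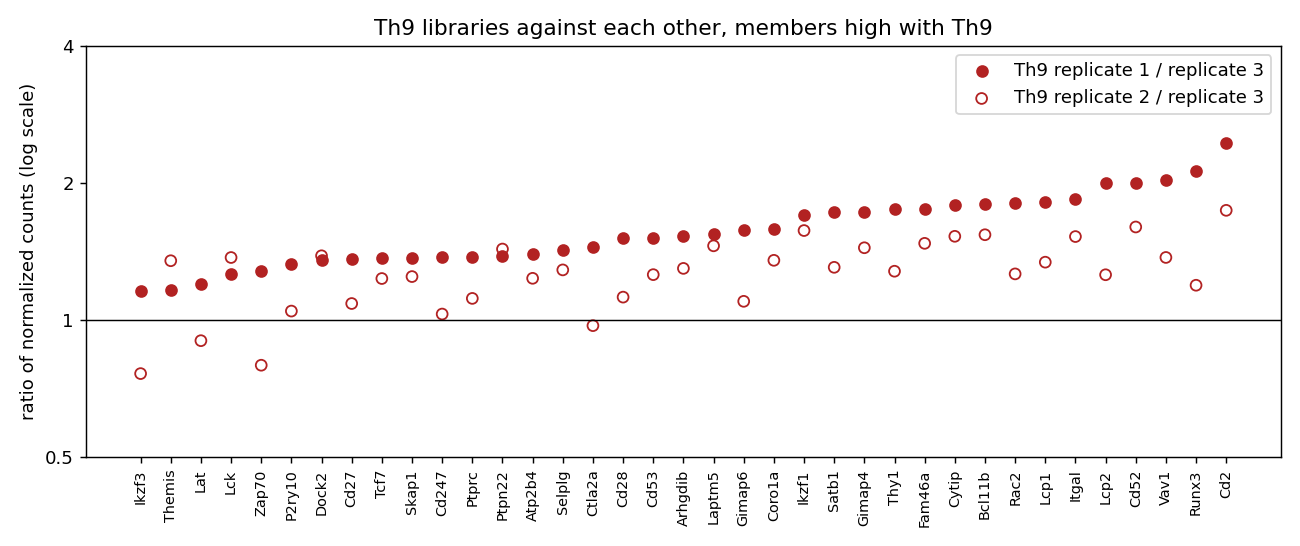
Ratio of the normalized count of Th9 replicate 1 (filled) and replicate 2 (open) to that of Th9 replicate 3 (log axis) for the 37 genes with a Th9 mean of at least 30 and more than 2 times the Th0 mean, ordered by the filled points. All 37 filled points lie above 1, from 1.16 (Ikzf3) to 2.44 (Cd2), and 33 of the open points do.

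Markers of other white blood cells were read beside these genes, and the part they have in the results was not tested. The 9 B cell markers, all listed, summed to 343, 153 and 107 in Th0, to 129, 128 and 114 in Th9 and to 39, 38 and 41 in Th17. Their sum was thus not higher in Th9, where the lymphocyte genes were. It was highest in Th0 replicate 1, and every Th17 library was below every Th0 library. Ighm, the heavy chain of IgM, was at 191, 61 and 48 in Th0, 75, 68 and 67 in Th9 and 4, 2 and 2 in Th17. It made up most of the Th9 sum. Pax5, the B cell identity factor, was at 43, 38 and 19 in Th0 and 27, 28 and 27 in Th9. Ms4a1 was at 16, 10 and 7 in Th0 and 3, 3 and 2 in Th9. For Cd22 the values were 7, 4 and 6 against 2, 1 and 2. For Ms4a1, Cd22 and Igkc every Th9 library was below every Th0 library, and the other B cell markers overlapped. Of the 12 myeloid markers 6 were listed, and Adgre1, Itgam, Tyrobp, Spi1, C1qa and C1qb were not. Their sum was 349, 172 and 197 in Th0, 214, 269 and 213 in Th9 and 169, 182 and 204 in Th17, and most of it was Cd68, a lysosomal glycoprotein, at 206, 104 and 136 in Th0 and 125, 174 and 131 in Th9. Cd14, a receptor for lipopolysaccharide, was at 41, 37 and 26 in Th0 and 67, 63 and 58 in Th9, all of them above Th0. Lyz2 and Mpo, of the same list and singled out after their values were seen, went the other way. Lyz2 (lysozyme) was at 33, 15 and 11 in Th0 and 0, 2 and 1 in Th9. Mpo (myeloperoxidase) was at 24, 1 and 4 in Th0 and 0 in all Th9 libraries. The remaining listed markers, Csf1r and Fcer1g, overlapped between Th0 and Th9, as did Cd68. Of 6 NK cell markers the table with Th9 listed 4, and Ncr1 and Klrb1c were not listed. The 4 summed to 5, 3 and 8 in Th0 and to 81, 69 and 39 in Th9, in the same order of replicates as the lymphocyte genes. Cd8a was at 6, 0 and 0 in Th0 and at 7, 6 and 7 in Th9, and Cd8b1 was not listed. Of 5 dendritic cell markers 4 were listed, with sums of 274, 231 and 186 in Th0 and 235, 213 and 228 in Th9, most of it from Itgax (100, 70 and 64 against 76, 65 and 77) and Zbtb46 (155, 141 and 97 against 125, 111 and 123). Flt3, a receptor of dendritic cells and early progenitors and also chosen after its values were seen, was at 9, 12 and 12 in Th0 and 24, 31 and 21 in Th9, with no overlap. Of 5 red cell genes 3 were listed in the table with Th9, and Alas2, the heme synthesis enzyme, made up nearly all of their sum, at 122, 59 and 76 in Th0 and 63, 61 and 62 in Th9. Genes of the tumour line itself were measured beside these. Vim (vimentin) was at 56024, 81414 and 78914 in Th0 and 67746, 65637 and 68614 in Th9, which overlapped. Krt18 (keratin 18) was at 3215, 4500 and 4636 in Th0 and 3031, 3315 and 3452 in Th9, which overlapped too. For Vim and Krt18 the overlap came from Th0 replicate 1 alone, and the other Th0 libraries were above every Th9 library. Krt8 (keratin 8) was lower in every Th9 library, at 1688, 2470 and 2282 in Th0 and 956, 1050 and 1255 in Th9. Col1a1 (type I collagen), chosen after its values were seen, was likewise lower, at 18, 21 and 16 in Th0 and 5, 5 and 5 in Th9. The epithelial genes Epcam and Cdh1 and the lung factor Nkx2-1 were not listed.

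**Figure D4:**
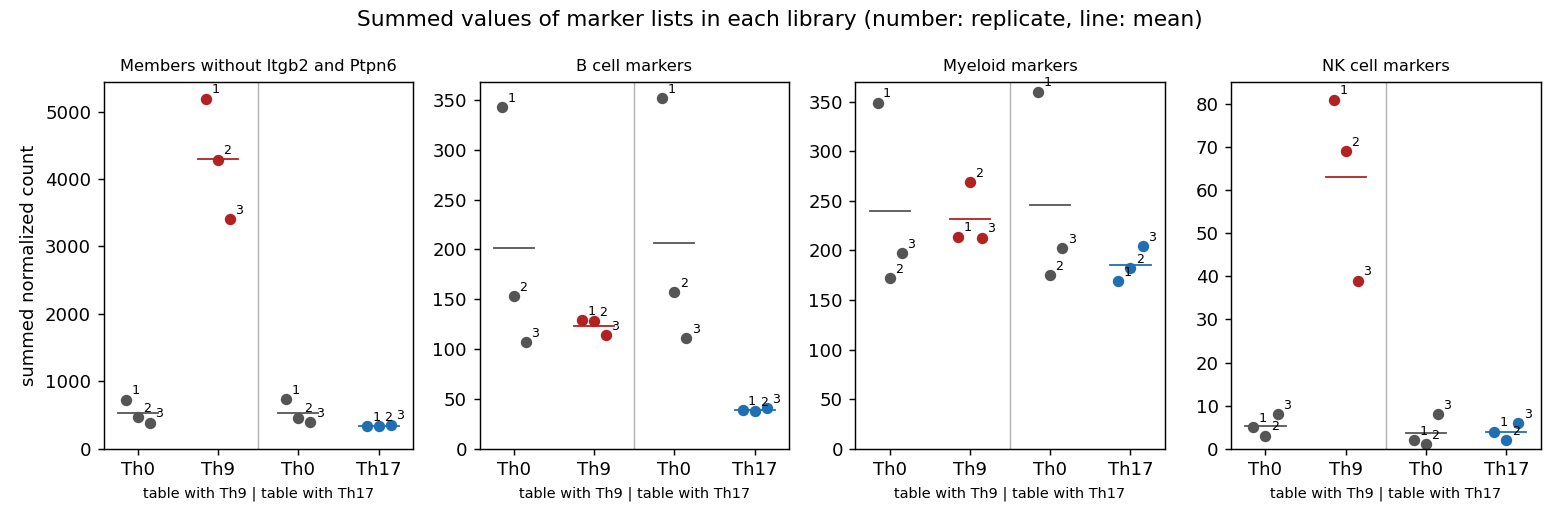
Summed normalized counts per library (points, with replicate numbers, lines for the mean of 3) of the 41 genes other than Itgb2 and Ptpn6 and of the B cell, myeloid and NK cell marker lists, in the table with Th9 (left of each panel) and with Th17 (right), on axes from 0. The sums of the 41 genes and of the NK markers are highest in Th9, and that of the B cell markers in Th0 replicate 1. The right part of the NK panel holds 1 gene (Eomes), the left part 4.

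A further 57 lymphocyte genes of the same pathways, none of them among the 43, were tested with limma-trend in a fit across all genes averaging at least 10. A gene was called at a p under 0.05 after Benjamini-Hochberg adjustment. In Th9 against Th0, 56 were listed and 47 tested, 25 of them with a mean of at least 10 in Th0. Of the 47, 39 were called higher, 1 lower and 7 not, while of all 14475 genes tested 13.4% were called higher and 11.9% lower. The median difference over the 56 was 2.61. Genes that are low in Th0 enter such a test through their Th9 values, so the share called is not read as support. By role, 11 of 13 tested genes of receptor signalling, 9 of 11 surface genes, 5 of 6 GIMAP genes, 9 of 11 cytoskeleton genes and 5 of 6 transcription factors rose. Fyb, the adaptor ADAP that binds SLP-76 and Skap1, rose from 39, 35 and 33 to 316, 270 and 234, a difference of 2.90 (SE 0.16, limma-trend adjusted p = 2.9e-07). Lef1, a partner of Tcf7, rose from 24, 15 and 17 to 199, 183 and 132 (3.14, SE 0.23, adjusted p = 2.2e-06 with limma-trend). All 3 Th9 libraries were above all Th0 libraries for both of these. Klf2, a factor of resting T cells and of many other cells, was the 1 gene called lower, at 36, 45 and 42 in Th0 and 22, 30 and 18 in Th9 (-0.81, SE 0.26, limma-trend adjusted p = 0.036). Its call did not hold without Th0 replicate 2 (adjusted p = 0.096), Th0 replicate 3 (0.1), Th9 replicate 1 (0.11) or Th9 replicate 3 (0.12).

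In Th17 against Th0, 40 of the 57 were listed and 23 tested, and limma-trend called 0 higher and 0 lower. At an unadjusted p under 0.05, 2 were higher and 4 lower. Of all 14342 genes tested, 1.19% were called higher and 0.390% lower. The median difference over the 40 was -0.54. Without Th0 replicate 1, Ets1, a factor of the ETS family, was called higher (0.17, adjusted p = 0.03 with limma-trend) and Tbc1d10c, an inhibitor of calcineurin and Ras signals, lower (-0.97, adjusted p = 0.036). In Th17 against Th9, which tests the difference between both co-cultures, 40 were listed and 36 tested, of which 30 were called lower and 0 higher, also at an unadjusted p under 0.05. Of all 14365 genes tested, 10.8% were called lower and 10% higher. The median over the 40 was -2.27. Fyb (-3.24, SE 0.16, adjusted p = 3.7e-09), Lef1 (-2.96, SE 0.24, adjusted p = 4.7e-07) and Hcls1, an actin regulator of blood cells (-4.22, SE 0.37, adjusted p = 1.1e-06), had the smallest limma-trend p-values. The others called lower included Grap2, Rasgrp1, Sla, Sash3 and Ptprcap of receptor signalling, Cd37, Itga4, Itgb7, S1pr1 and Il7r of the surface, Gimap3 and Gimap8, Dock8, Dock10, Nckap1l, Fermt3, Myo1g, Arhgap15, Tbc1d10c, Wipf1 and Stk17b of the cytoskeleton, and the factors Gfi1, Ikzf2 and Bach2. Their differences ran from -6.00 (Gimap3) to -0.33 (Itgb7). Genes of the receptor pathway outside the 43 thus differed between Th17 and Th9 in the direction in which Ptprc, Lck and Satb1 did.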

How the data were processed

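Total RNA of LLC1 cells was measured in 9 libraries (3 each with Th0, Th9 and Th17). Per the labels' protocols, a stranded SMARTer kit was used with 1 µg of RNA. The tools named, per the submitters' processing notes and with no role given, are STAR 2.4.0a, DESeq2 1.62 and, of Subread, featureCounts 1.4.5-p1, with the builds GRCm38 and mm10. The values that the authors deposited in 2 tables are scores without decimals, which by the tables' names and values are read counts divided by a size factor per library and rounded. The authors normalized each table on its own, and the Th0 libraries differed between them by 1 factor per library. As the values are not counts, no count model was used. Depth was approximated as the summed values times a size factor read from the steps of low values, which is uncertain for Th9 replicate 2. Its precision covers counting error only. No column of sample values was left unused (0).

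The 43 genes and all lists were chosen with earlier results of these data known. Fits used limma-trend (limma 3.58.1, R 4.3.3) on log2(value + 1), with group as the only term and only genes averaging at least 10, and were tested on simulated data. Th17 against Th9 used all 9 libraries, with Th17 values divided by 1.0254, the mean factor between the tables. Numbers of members, sums and ratios were computed with Python 3.11.15 and pandas 2.3.3. Exon lengths, coordinates and overlaps came from GENCODE M21, and promoters from RefSeq. The rule for named genes gave values in every library for Cd4 and for genes averaging at least 30 in a group, and the 3 other lymphocyte genes with the smallest adjusted p per direction, of which some are not reported here. Alternatives were a pseudocount of 4, no filter or a mean of at least 50, equal totals, array weights, a replicate block, and each library left out.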

Additional observations from a re-analysis of the deposited data

How the results depend on the processing

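Of the lymphocyte genes named, none called by a test changed sign over the alternatives run, and no median of the 43 genes did. Some differences without a test did: in Th17 against Th0, 2 genes were above 0 with all libraries and 9 without Th0 replicate 1, and equal totals moved the median of all genes in Th17 against Th9 from 0.02 to -0.07. The median difference of the 43 genes in Th9 against Th0 was 2.89 with a pseudocount of 4, and -3.25 for the 35 genes in Th17 against Th9, where leaving out 1 library gave -4.27 to -3.76. The difference was also smaller with that pseudocount for 14 genes near 0 in Th0. In Th17 against Th0, leaving out 1 library gave 0 to 1 genes with all libraries above Th0 and 11 to 18 with all below. These counts can only stay or rise when a library is left out. Of the other lymphocyte genes, a mean of at least 50 left 14 higher and 0 lower in Th9 against Th0 and 10 lower in Th17 against Th9, as fewer genes were tested. Equal totals per library gave 0 lower in Th9 against Th0 (Klf2 at -0.71, adjusted p = 0.063), and leaving out 1 library gave 0 to 1. In Th17 against Th0, array weights gave 1 higher (Ets1) and 2 lower (Tbc1d10c and Klf2), and leaving out 1 library gave 0 to 1 either way.

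Over all genes, in Th9 against Th0, 1937 were called higher and 1716 lower. Equal totals per library shifted the median of all genes by 0.1 and gave 2252 and 794, and array weights gave 3302 and 3326. Leaving out 1 library gave 1015 to 2594 higher and 838 to 2742 lower. In Th17 against Th0, 170 were called higher and 56 lower, against 20 lower with equal totals, 1572 and 1789 with array weights, and 14 to 974 higher and 2 to 1378 lower with 1 library left out, the highest counts being those without Th0 replicate 1. In Th17 against Th9, 1438 were called higher and 1547 lower, against 680 higher with equal totals, 2539 and 2435 with array weights, and 896 to 2285 higher with 1 library left out. The causes of these shifts were not tested.

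With a replicate block, 2114 genes were called higher and 1962 lower in Th9 against Th0, 186 and 76 in Th17 against Th0, and 1367 and 1479 in Th17 against Th9. Of the other lymphocyte genes the replicate block called 38 higher and 1 lower, 0 and 0, and 0 and 30. Deviations of samples with the same number had correlations of -0.21 to 0.24 over the comparisons. In Th9 against Th0 they were 0.20, -0.02 and 0.24, where samples with different numbers had -0.23 to 0.11. For Th17 they were -0.12 to 0.05 with Th0 and -0.21 to 0.08 with Th9. The labels do not say that the numbers pair libraries, and correlations this weak cannot settle it. Low values limit the genes at single digits in Th0 and Th17, and 8 of the 43 genes have no value with Th17.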

Other observations

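Constant region genes of the T cell receptor are not among the genes described above and were picked after their values had been seen, so they carry no test. Trdc, the delta chain, was at 2, 3 and 0 in the Th0 libraries and at 145, 101 and 77 in the Th9 libraries. The gamma chain genes were likewise near 0 in Th0, and in Th9 Tcrg-C1 was at 33, 28 and 29, Tcrg-C2 at 55, 32 and 28, and Tcrg-C4 at 42, 35 and 15. The alpha chain, Trac, was at 2, 2 and 0 in Th0 and at 10, 11 and 13 in Th9. The beta chain genes Trbc1 and Trbc2 were at 26, 18 and 9 and at 26, 13 and 11 in Th9, with 0 to 2 in Th0. All 3 Th9 libraries were above all 3 Th0 libraries for each of these 7 genes, and the cells that carried the transcripts were not identified.

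Klrk1 and Klrd1, which encode the receptors NKG2D and CD94 of NK cells and some T cells, were also chosen after their values were seen. Klrk1 was at 1, 0 and 1 in Th0 and at 37, 29 and 14 in Th9, and Klrd1 at 2, 1 and 0 against 28, 25 and 16. Igkc, the light chain gene of B cells, went the other way, at 46, 15 and 11 in Th0 and 1, 5 and 2 in Th9. Hbb-bs, a globin gene, was at 15 in Th9 replicate 1 and at 0 in the 5 other libraries of that table.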
